A study of Mus musculus with 6 samples.

Results

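The interleukin 1 family was examined in whole eyeballs of newborn mice through 8 of its ligand, antagonist and receptor genes, Il1b, Il1a, Il18, Il1rn, Il1r1, Il1rap, Il1r2 and Il1rl1. The family was put together with earlier results of these arrays in view, among them the difference in Il1b. Each gene's probe set was chosen from those the platform annotation gives to that gene alone, by the highest mean log2 value over all 6 arrays, and the other probe sets served as a check. The difference between genotypes did not enter this choice, although a probe set that is bright in 1 genotype gains in the mean. Of the 8 genes, 7 were measured in this way by 11 probe sets, among 12393 genes with such a probe set. Il1rl1, the receptor of interleukin 33, had no probe set naming it alone and was not analysed here.

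Interleukin 1 beta and interleukin 1 alpha are ligands that set off inflammation in many tissues, the ocular surface included. Both bind a receptor made of Il1r1 and the accessory chain Il1rap, which passes the signal through the adaptor Myd88 to NF-kappaB and to stress kinases. The family holds its own brakes, the receptor antagonist encoded by Il1rn, which occupies the receptor without a signal, and the decoy receptor encoded by Il1r2, which binds ligand without passing a signal on.

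RNA of single eyeballs taken at postnatal day 1 was hybridised to Affymetrix GeneChip arrays, with 3 Brg1 cKO and 3 wild-type eyeballs from a mixed background. Brg1 cKO mice were homozygous for a floxed allele of Brg1 (Smarca4), an ATPase of SWI/SNF chromatin remodeling complexes, and carried the Le-Cre transgene, which acts in the head surface ectoderm that forms the lens. The wild-type mice were littermates of the same age. By the study's own account controls carried the floxed alleles without Cre, deletion of both alleles was incomplete in many embryos, and severity varied between mutants. These arrays held no group with Le-Cre alone, so effects of the transgene and of Brg1 loss on RNA cannot be told apart. The study reports no phenotype of Le-Cre mice relative to wild type. Values are RMA intensities on a log2 scale. Differences are Brg1 cKO minus wild type, adjusted p-values are those of limma with Benjamini-Hochberg adjustment over all probe sets, and 0.05 was the threshold.

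The arrays had median intensities between 169.1 and 185.5, and 115 of 22626 probe sets passed the threshold. Brg1 cKO replicate 1 stood apart in Xist, at 4.88 against 12.30 or more in the other 5 arrays, with the Y-linked Eif2s3y at 11.25, so that it came from a male and the others from females. Brg1 cKO replicate 2 stood apart in the whole profile, with correlations to the wild-type arrays of 0.957 to 0.965 across probe sets, where the other Brg1 cKO arrays reached 0.972 to 0.983. Smarca4 itself did not check the labels. Its brighter probe set differed by 0.18 (SE 0.19, adjusted p = 0.866) and its dimmer one by -0.70 (SE 0.30, adjusted p = 0.598), and whether either lies in the deleted part was not tested. The eyeballs carried lens, retina and cornea transcripts, with the lens crystallin Cryaa at 13.9 or more and the retinal regulator Otx2 at 12.2 to 12.3 in wild type. The corneal keratin Krt12 stood at 9.19 to 9.53 in wild type and at 5.23 to 6.01 in Brg1 cKO. With 3 arrays per genotype, array number sets the precision. The table holds no detection calls, so values under log2 4.84, the 25th percentile of all values, were read as near the low end of the scale, and Y-linked genes in the 5 arrays with high Xist gave 2.10 to 3.25.

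Of the 7 measured genes, 2 rose past the threshold, Il1b and Il1rn, where 0.428% of all genes rose, and 0 fell, where 0.266% of all genes did. An unadjusted limma p was under 0.05 for 4 of the 7, and for 9.3% of all genes. The decoy receptor gene Il1r2 had the next largest difference and did not pass. Il18, Il1a, Il1r1 and Il1rap differed by less than 1 log2 unit. All 3 Brg1 cKO arrays lay above all 3 wild-type arrays for 5 of the 7 genes, against 8.46% of all genes, and this count includes Il1b and Il1rn. Because the genes were brought together with results known, these shares describe the family and nothing more is read from them. The median difference of the 7 genes was 0.69, against 0.02 over all genes, and 7 of 7 differences were positive, against 52.9% of all genes. This median was 1.09 without Brg1 cKO replicate 1, and 2.03 with the filter on low values, which drops Il1a. In whole eyeballs, more cells of a type and more RNA per cell cannot be told apart.

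**Figure D1:**
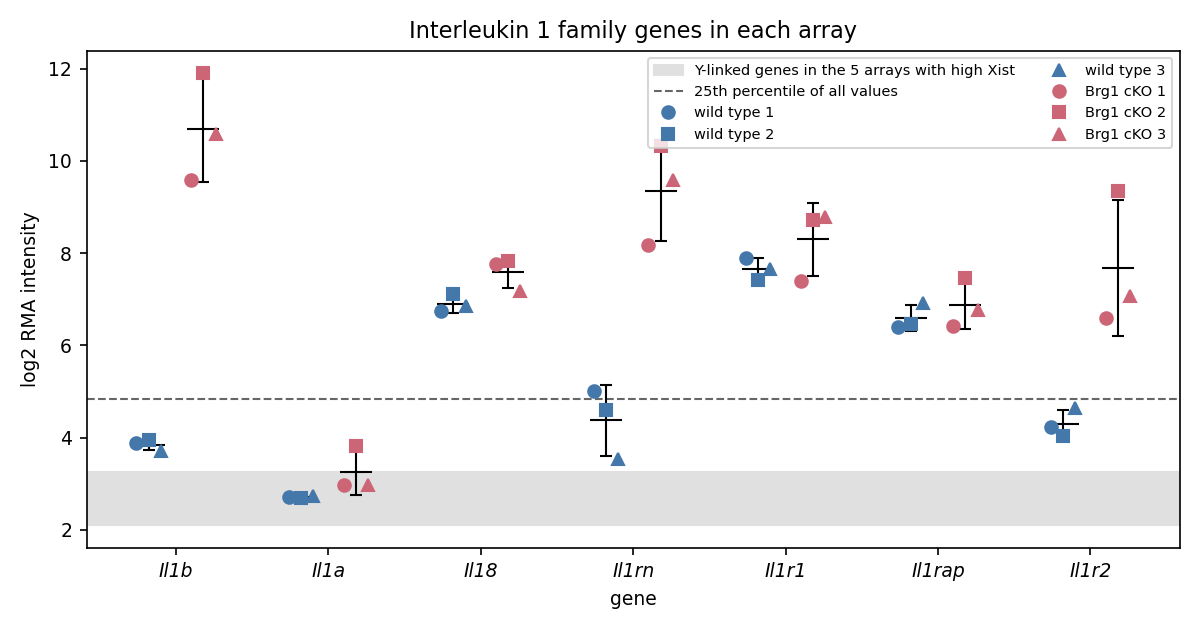
Log2 RMA intensity (vertical axis) of the 7 measured genes in each array, wild type in blue and Brg1 cKO in red, with a marker shape per replicate. The horizontal bars are means and the error bars SD (n = 3), the dashed line is the 25th percentile of all values, 4.84, and the grey band spans the Y-linked genes in the 5 arrays with high Xist. Il1b, Il1rn and Il1r2 lay low in wild type and well apart in Brg1 cKO, while Il1r1 and Il1rap overlapped.

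Il1b, which encodes the secreted ligand that is made as a precursor and released after cleavage, showed the largest difference of the family. Its probe set 1449399_a_at gave log2 values of 3.89, 3.94 and 3.71 in the wild-type eyeballs, ordered by replicate, against 9.59, 11.90 and 10.58 in the Brg1 cKO eyeballs. All wild-type values were near the low end of the scale, and the lowest Brg1 cKO value lay 5.65 above the highest wild-type value. On the linear scale the wild-type intensities were 13.1 to 15.3 and the Brg1 cKO intensities 770 to 3812. Group means were 3.85 ± 0.12 and 10.69 ± 1.16 (SD, n = 3), a difference of 6.84 (SE 0.52, 95% interval 5.62 to 8.06), or 115-fold, with an adjusted p of 0.0036. Because the wild-type level was near the low end, this fold depends on how RMA sets dim values.

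The rise of Il1b did not rest on either array that stood apart. It was 6.24 (SE 0.31, adjusted p = 0.00129) when Brg1 cKO replicate 2 was left out. It was 7.39 (SE 0.39, adjusted p = 0.00226) when replicate 1 was left out, which leaves females only. Over the fits with 1 array left out the adjusted p of Il1b ran from 0.00129 to 0.0377.

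Il1rn, the receptor antagonist gene, was the other member that rose. Its brightest probe set 1451798_at gave log2 values of 5.01, 4.60 and 3.53 in the wild-type eyeballs, ordered by replicate, against 8.17, 10.32 and 9.58 in the Brg1 cKO eyeballs. The groups were 3.16 apart at their closest, and 2 of the wild-type arrays were near the low end. Means were 4.38 ± 0.76 and 9.36 ± 1.09 (SD, n = 3), a difference of 4.98 (SE 0.59, 95% interval 3.59 to 6.36), or 31.5-fold, with an adjusted p of 0.021. This call was less stable than that of Il1b. The adjusted p was 0.0227 when Brg1 cKO replicate 2 was left out and 0.00917 when replicate 1 was, but 0.0842, 0.0975 and 0.0945 without wild-type replicates 1, 2 and 3, and 0.0912 without Brg1 cKO replicate 3. With 16 added to each intensity before the log it was 0.0937, with a difference of 4.16.

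The remaining probe sets of Il1rn differed in the same direction and neither passed. Probe set 1425663_at read 4.69, 4.05 and 3.20 in wild type against 5.81, 7.71 and 7.54 in Brg1 cKO, a difference of 3.04 (SE 0.57, adjusted p = 0.106). Probe set 1423017_a_at read 3.52, 3.52 and 3.27 in wild type against 4.66, 6.04 and 6.02 in Brg1 cKO, a difference of 2.13 (SE 0.38, adjusted p = 0.0823). The groups did not overlap in either, and in all 3 probe sets of Il1rn replicate 1 was the lowest and replicate 2 the highest of the Brg1 cKO arrays.

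The sequences upstream of the 2 genes that rose are shown. They come from RefSeq, build GRCm38.p6, where Il1b lies at chr2:129364569-129371164 and Il1rn at chr2:24336860-24351491. Il1a, which did not pass, is on the same chromosome. Windows of 250 bases before the start sites were searched on both strands. The letters sought were, for NF-kappaB, 3 G and 2 C with any 5 bases between them. The AP-1 search used TGANTCA and the PU.1 search used GAGGAA. The STAT search used TTCNNNGAA. The search for a TATA box used TATAAA. Capitals mark the matches.
Il1b, chr2:129371165-129371389, minus strand: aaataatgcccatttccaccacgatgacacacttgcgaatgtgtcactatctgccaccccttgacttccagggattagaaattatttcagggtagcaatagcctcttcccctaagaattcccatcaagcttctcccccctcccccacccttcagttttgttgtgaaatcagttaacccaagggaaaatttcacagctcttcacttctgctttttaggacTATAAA
Il1rn, chr2:24336610-24336859, plus strand: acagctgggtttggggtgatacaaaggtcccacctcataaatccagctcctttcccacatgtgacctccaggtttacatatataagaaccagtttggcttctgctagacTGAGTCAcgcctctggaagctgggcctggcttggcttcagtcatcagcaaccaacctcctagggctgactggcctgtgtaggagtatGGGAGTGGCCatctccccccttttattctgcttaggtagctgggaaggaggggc
The Il1b stretch has 225 bases, because a transcript of the gene begins 25 bases further up than the start site used, and its only match is TATAAA at positions -31 to -26 from that site. The Il1rn stretch of 250 bases holds TGAGTCA at -141 to -135 and GGGAGTGGCC at -54 to -45. Of 32851 windows in the table, 12.4% held the TATA letters, 6.75% the AP-1 letters and 45.8% the NF-kappaB letters. Over the 12 windows of the 8 genes, NF-kappaB letters stood in 4 windows of 3 genes, AP-1 letters in 2 windows of 2 genes and TATA letters in 3 windows of 3 genes. PU.1 letters stood in 1 window, of Il1a, against 23.3% of all windows, and STAT letters in 1 window, of Il1r2, against 7.02%. A match describes letters and shows no bound factor, and a missing match says only that the letters are not in that window.

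Il1a encodes the ligand that epithelial cells store and release on damage. Probe set 1421473_at gave log2 values of 2.71, 2.70 and 2.73 in the wild-type eyeballs, ordered by replicate, against 2.97, 3.82 and 2.96 in the Brg1 cKO eyeballs. All 6 values were near the low end, and only Brg1 cKO replicate 2 was above the span of the Y-linked genes. Means were 2.71 ± 0.02 and 3.25 ± 0.49 (SD, n = 3), a difference of 0.54 (SE 0.26, 95% interval -0.07 to 1.14, adjusted p = 0.666). Without Brg1 cKO replicate 2 the difference was 0.25. At this signal a fall or a small change in Il1a was not detectable. The interval reached 1.14 at most, so no rise of the size of that of Il1b was seen with this probe set.

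Il18 encodes a ligand that epithelia make constantly as a precursor, which caspase-1 cleaves. Probe set 1417932_at gave log2 values of 6.74, 7.11 and 6.84 in the wild-type eyeballs, ordered by replicate, against 7.76, 7.83 and 7.18 in the Brg1 cKO eyeballs. The Brg1 cKO values were all higher, but replicate 3 cleared the highest wild-type array by only 0.07. Means were 6.90 ± 0.19 and 7.59 ± 0.36 (SD, n = 3), a difference of 0.69 (SE 0.23, 95% interval 0.15 to 1.23), or 1.62-fold, with an adjusted p of 0.442. With 1 array left out the difference ran from 0.57 to 0.90 and did not pass. All 6 values of Il18 were above the low end of the scale.

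**Figure D2:**
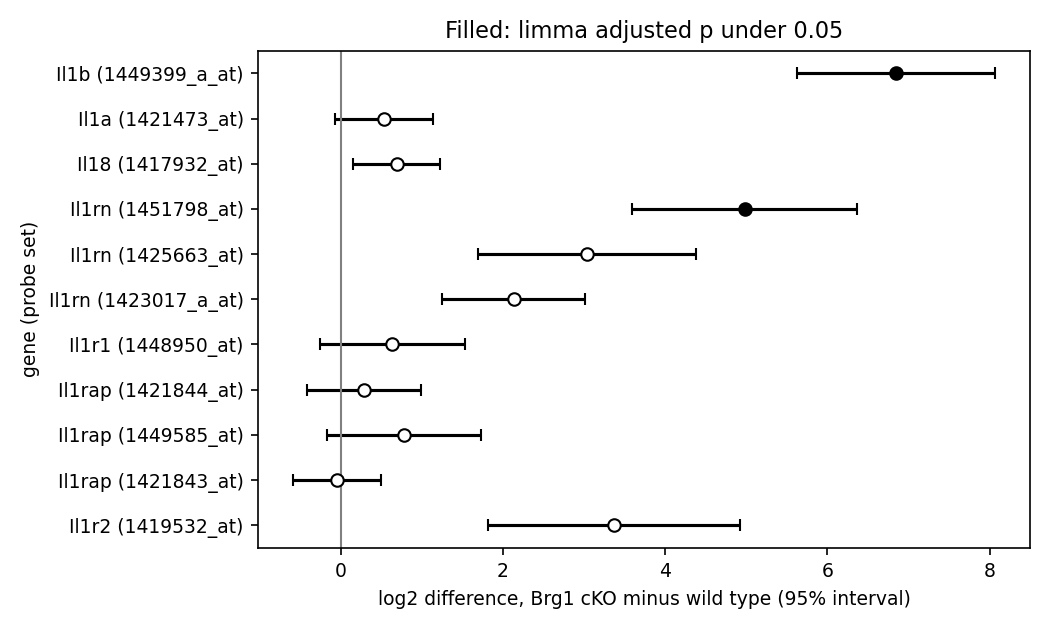
Log2 difference between Brg1 cKO and wild type (horizontal axis) with its 95% interval for all 11 probe sets of the 7 genes, 3 arrays per genotype. Filled points passed the threshold, and they were the sets of Il1b at 6.84 and of Il1rn at 4.98. All 3 sets of Il1rn lay above 2, and those of Il1rap lay between -0.04 and 0.78.

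Il1r1 encodes the signaling receptor of both interleukin 1 ligands. Probe set 1448950_at gave log2 values of 7.90, 7.42 and 7.65 in the wild-type eyeballs, ordered by replicate, against 7.39, 8.72 and 8.78 in the Brg1 cKO eyeballs. Replicates 2 and 3 of Brg1 cKO were above all wild-type arrays, and replicate 1 was the lowest array of all. Means were 7.66 ± 0.24 and 8.30 ± 0.78 (SD, n = 3), a difference of 0.64 (SE 0.38, 95% interval -0.26 to 1.53, adjusted p = 0.74). Without Brg1 cKO replicate 1, the male, the difference was 1.09 (SE 0.21) and still did not pass, with an adjusted p of 0.14. The male and the individual eyeball cannot be told apart here.

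Il1rap encodes the accessory chain that interleukin 1, interleukin 33 and interleukin 36 receptors share. Its brightest probe set 1421844_at gave log2 values of 6.39, 6.47 and 6.91 in the wild-type eyeballs, ordered by replicate, against 6.41, 7.46 and 6.77 in the Brg1 cKO eyeballs. The groups overlapped, and only Brg1 cKO replicate 2 was above the wild-type arrays. The difference was 0.29 (SE 0.30, 95% interval -0.41 to 0.99, adjusted p = 0.857), and it was 0.00079 without that array. The interval does not show equal levels. The other sets, 1449585_at and 1421843_at, differed by 0.78 and -0.04 (adjusted p = 0.689 and 0.978), with all but 1 of their values under 4 on the log2 scale.

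Il1r2, the decoy receptor gene, separated the genotypes without passing the test. Probe set 1419532_at gave log2 values of 4.22, 4.05 and 4.64 in the wild-type eyeballs, ordered by replicate, against 6.59, 9.35 and 7.08 in the Brg1 cKO eyeballs. Wild-type values were near the low end, the closest Brg1 cKO array was 1.95 above them, and replicate 2 was far above the other Brg1 cKO arrays. Means were 4.30 ± 0.30 and 7.67 ± 1.48 (SD, n = 3), a difference of 3.37 (SE 0.66, 95% interval 1.82 to 4.92), or 10.3-fold, with an adjusted p of 0.12. Without Brg1 cKO replicate 2 the difference was smaller, 2.53 (SE 0.26), and passed with an adjusted p of 0.011. Without replicate 1 it was 3.91 (adjusted p = 0.076), and without each other array the adjusted p was 0.173 to 0.452.

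**Figure D3:**
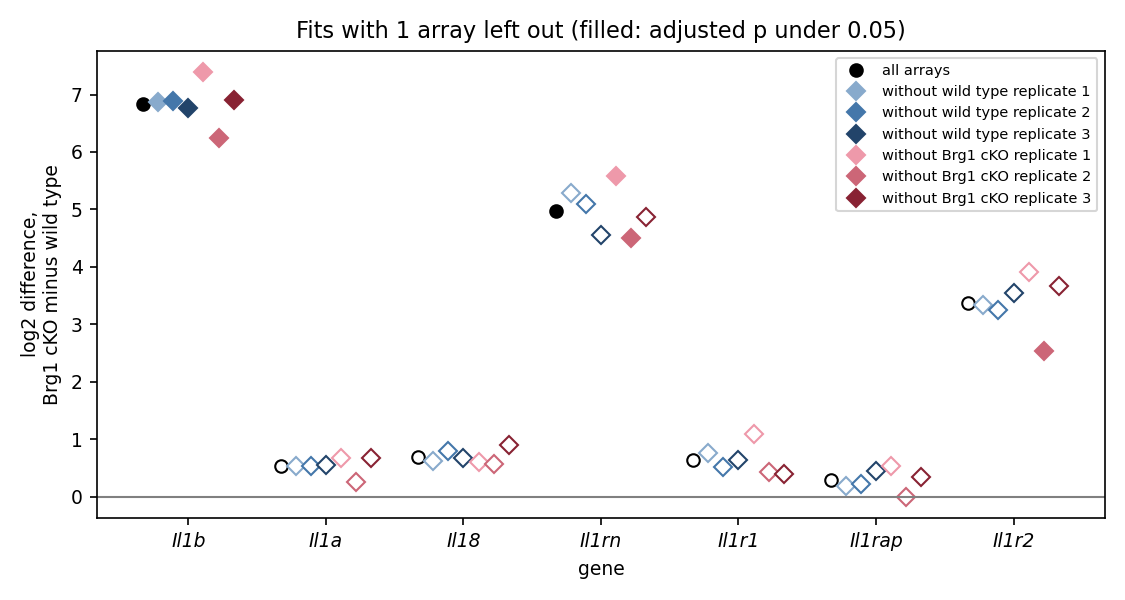
Log2 difference between Brg1 cKO and wild type (vertical axis) of each gene with all arrays (circle) and with each array left out in turn (diamonds). Filled symbols passed the threshold. Il1b passed in all 7 fits, Il1rn lost its call in 4 of the 6 fits on 5 arrays, and Il1r2 passed only without Brg1 cKO replicate 2.

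For 7 of 7 genes the SD among Brg1 cKO eyeballs exceeded that among wild-type eyeballs, and the share of all genes with this order was not computed. All wild-type values of Il1a, Il1b and Il1r2 were near the low end, where RMA draws values together, so their spreads are not directly comparable between genotypes. The 3 Brg1 cKO arrays spanned 2.31 for Il1b, 2.15 for Il1rn and 2.76 for Il1r2, where the wild-type arrays spanned 0.23, 1.48 and 0.59. Over all probe sets the median SD was 0.22 in wild type and 0.30 in Brg1 cKO, so a larger spread was not particular to these genes. Brg1 cKO replicate 2 was the highest of its group in 6 genes and replicate 3 in 1, Il1r1. Replicate 1 was the lowest in 5 genes and replicate 3 in 2, Il1a and Il18. Among marker genes of other tissues, replicate 2 was the highest in 10 of 11 for skeletal muscle and 13 of 14 for lens. For retina it was the highest in 0 of 9. Relative to the wild-type mean, Il1b deviated by 5.74, 8.05 and 6.73 in Brg1 cKO replicates 1 to 3, Il1rn by 3.79, 5.95 and 5.20, and Il1r2 by 2.29, 5.05 and 2.77.

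Markers of other cell types were read in the same arrays. Of 15 measured neutrophil genes 4 rose past the threshold, Clec4d, Fpr2, S100a9 and S100a8, where 0.428% of all genes rose. The list median was 1.29. The summed intensity of this list was 672 to 946 in wild type against 9253, 30953 and 11289 in the Brg1 cKO eyeballs, by replicate, and 92.2% to 93.4% of each mutant sum came from S100a8, S100a9 and Clec4d. The median deviation of the 15 genes from wild type was 0.46, 2.81 and 0.72 in the same arrays, and the granule protein gene Ltf differed by -0.51. The granule enzyme gene Mpo, made by neutrophil precursors, read 2.29 to 2.95 in all 6 arrays, and Cd177 was as dim. Of 19 macrophage genes 1 rose, the lipopolysaccharide co-receptor Cd14, with a median of 1.06, and the list summed to 4323 to 6580 in wild type against 8970, 20657 and 10644 in Brg1 cKO. An unadjusted limma p was under 0.05 for 7 of the 15 neutrophil and 12 of the 19 macrophage genes, against 9.3% of all genes. Neutrophil and macrophage sums had the same order over the Brg1 cKO arrays as Il1b, Il1rn and Il1r2. The mast cell sums had this order too. So had the sums of the skeletal muscle and cornea lists, so the order is not particular to myeloid genes. The part of any of these cell types in the differences of Il1b, Il1rn and Il1r2 was not tested.

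Of 8 genes that keratinocytes switch on in wounds, 6 rose, where 0.428% of all genes rose. Among them was the keratin gene Krt16, at 4.35 to 5.90 in wild type and 11.6 to 12.3 in Brg1 cKO. This list had a median of 3.56 and summed to 1189 to 1275 in wild type against 6483, 10298 and 11809 in the mutants, and here replicate 3 was higher than replicate 2. Its part in the differences of the interleukin 1 genes was not tested. Of 10 epidermis genes and 11 skeletal muscle genes 0 passed in either direction, with 5 and 0 at an unadjusted limma p under 0.05. The 5 epidermis genes went both ways, with Krtdap at 1.88 and Calml3 at -3.04. The muscle list summed to 35049 to 56500 in wild type against 26303, 66274 and 53298 in Brg1 cKO. Brg1 cKO replicate 1 was the lowest of its group in the muscle, neutrophil, macrophage and wound sums, and in 5 of the 7 interleukin 1 genes. The part of these cell types in that order was not tested. Of 10 mast cell genes 0 passed and 1 had an unadjusted p under 0.05, with a median of -0.13. The T cell and innate lymphoid list had 1 of 8 genes higher, Il7r, with a median of 0.05, and the T cell receptor gene Cd3e read 3.04 to 3.72. Lens and cornea lists ran the other way, with medians of -2.09 and -2.19. In them 1 of 14 and 2 of 6 genes fell, against 0.266% of all genes. An unadjusted limma p was under 0.05 for 12 of the 14 lens and 5 of the 6 cornea genes. It was so for 7 of the 8 wound genes and 2 of the 8 T cell and innate lymphoid genes, against 9.3% of all genes. The latter 2 were Il7r at 3.27 and Gata3 at -1.06, in opposite directions. Retina genes had a median of 0.01, and 0 of 9 passed with 1 at an unadjusted p under 0.05.

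**Figure D4:**
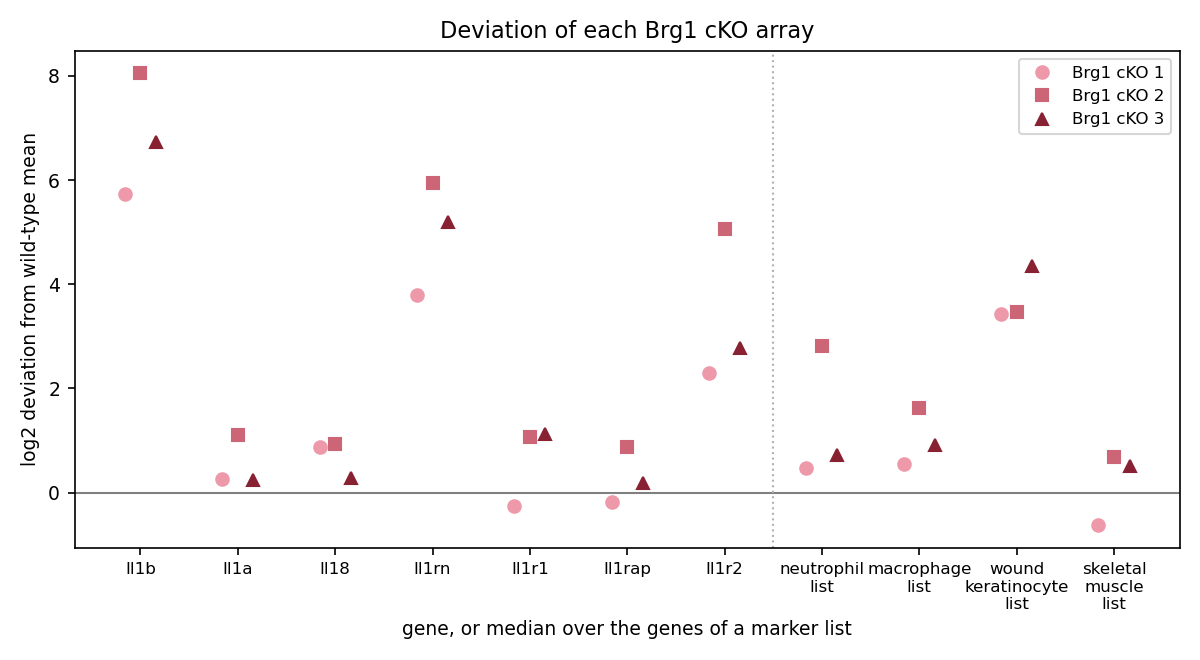
Log2 deviation of each Brg1 cKO array from the wild-type mean (vertical axis) for the 7 genes, left of the dotted line, and the median of the same deviation over the genes of 4 marker lists, right of it. Brg1 cKO replicate 2 was highest for Il1b, Il1rn, Il1r2 and the neutrophil (2.81), macrophage (1.63) and skeletal muscle (0.67) lists. Replicate 3 was highest for the wound keratinocyte list (4.36).

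The genes whose log2 profiles over the 6 arrays were most like that of Il1b, after each was centred on its own mean, were Clec4d, Slfn4 and Mmp3. The root mean square difference was 0.42, 0.49 and 0.57 on the log2 scale. For Il1rn they were Cxcl5 (0.51), Clec4e (0.60) and Acod1 (0.61). These figures describe 6 arrays of 2 genotypes and are dominated by the difference between them.

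Of 12 other measured genes of the family 0 rose and 1 fell, against 0.428% and 0.266% of all genes. The differences of the 12 ran from -1.68 to 2.24 with a median of 0.07, and 9 of the 12 wild-type means were near the low end. The gene that fell was Il18r1, the ligand-binding receptor chain for interleukin 18, which read 4.72, 4.70 and 5.26 in wild type against 3.17, 3.40 and 3.06 in Brg1 cKO, a difference of -1.68 (SE 0.22, adjusted p = 0.0259). All Brg1 cKO values and 2 wild-type values were near the low end. With 16 added to each intensity the difference was -0.86 and did not pass, and leaving out any array other than Brg1 cKO replicate 2 also ended the call. Il1f9, an epithelial ligand of the family, read 3.16, 3.82 and 3.36 in wild type against 4.71, 6.42 and 5.92 in Brg1 cKO, a difference of 2.24 (SE 0.43, adjusted p = 0.112) that passed without Brg1 cKO replicate 1 (adjusted p = 0.0183). Il33, the ligand of Il1rl1, read 7.36, 6.89 and 7.88 in wild type against 7.26, 9.46 and 9.03 in Brg1 cKO, and the groups overlapped (adjusted p = 0.653). Sigirr, a receptor that dampens the pathway, differed by 0.43 (adjusted p = 0.583).

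Of 12 measured genes that process or release interleukin 1, 1 rose and 0 fell, with a median of -0.03. The shares of all genes that did so were 0.428% and 0.266%. Mefv, which encodes the inflammasome sensor pyrin, read 2.96, 3.02 and 2.73 in wild type against 5.57, 6.77 and 6.02 in Brg1 cKO, a difference of 3.22 (SE 0.31, adjusted p = 0.00935). Its call was lost without any 1 of the wild-type arrays (adjusted p = 0.0597 to 0.0725), and with 16 added to each intensity the difference was 1.88 (adjusted p = 0.0937). Casp1, the protease that cleaves the interleukin 1 beta precursor, read 4.44, 4.23 and 4.21 in wild type against 5.17, 5.48 and 5.41 in Brg1 cKO, a difference of 1.06 (SE 0.17, adjusted p = 0.0647). Casp4, an inflammatory caspase gene, differed by 2.07 (SE 0.38, adjusted p = 0.0991), and the inflammasome sensor gene Nlrp3 by 2.64 (SE 0.67, adjusted p = 0.247). All Brg1 cKO arrays were above all wild-type arrays for these 4 genes, each near the low end in wild type. The same held for 8.46% of all genes. Of the 12 genes 6 had an unadjusted limma p under 0.05, against 9.3% of all genes. Among these, Gsdme and Txnip went the other way, by -0.97 and -0.54 (adjusted p = 0.555 and 0.562). Both were well above the low end in all arrays.

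Of 24 measured genes that carry the signal inside the cell, 0 passed in either direction and 3 had an unadjusted limma p under 0.05, with a median of 0.04. These were the kinase gene Map3k8 (difference 1.04, adjusted p = 0.284), the NF-kappaB subunit gene Relb (0.96, adjusted p = 0.341) and Myd88 (1.30, adjusted p = 0.473). Myd88 read 6.77, 6.73 and 6.64 in wild type against 7.33, 9.14 and 7.56 in Brg1 cKO, with replicate 2 well above the others.

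Of 30 measured genes that interleukin 1 is known to induce, and that other cytokines induce in many cases, 4 rose and 0 fell. Among all genes 0.428% rose and 0.266% fell. An unadjusted limma p was under 0.05 for 18 of the 30, against 9.3% of all genes. The median difference of the 30 was 1.08, and 26 differences were positive, against 52.9% of all genes. In wild type 14 of the 30 means were near the low end. The median depended on the arrays that stood apart, at 0.67 without Brg1 cKO replicate 2 and 1.47 without replicate 1. Mmp3, a matrix protease gene, rose by 6.14 (SE 0.29, adjusted p = 0.00054), from 5.09 to 5.30 in wild type to 10.7, 11.7 and 11.6 in Brg1 cKO replicates 1 to 3. Saa3, an acute phase protein gene, rose by 6.02 (SE 0.31, adjusted p = 0.000686). The neutrophil-attracting chemokine genes Cxcl5 and Cxcl2 rose by 4.89 (SE 0.35, adjusted p = 0.00315) and 6.50 (SE 0.78, adjusted p = 0.0217), and Cxcl2 lost its call without any 1 of the wild-type arrays (adjusted p = 0.074 to 0.114) and without Brg1 cKO replicate 3 (0.0902). With 16 added to each intensity, the adjusted p of Cxcl2 was 0.114. Cxcl1 differed by 2.92 (adjusted p = 0.0792) and Il6, a cytokine gene, by 2.63 (adjusted p = 0.158). Tnfaip6, which encodes a hyaluronan-binding protein, had the most negative difference, -0.37. Brg1 cKO replicate 2 was the highest array of its group in 22 of the 30 genes. It was also the highest in 10 of 11 skeletal muscle, 13 of 14 lens and 16 of 19 macrophage genes. In retina and wound keratinocyte genes it was the highest in 0 of 9 and 2 of 8. Leaving out Brg1 cKO replicate 1 raised the genes of these 4 lists past the threshold from 5 to 10, and leaving out any wild-type array lowered them to 3.

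**Figure D5:**
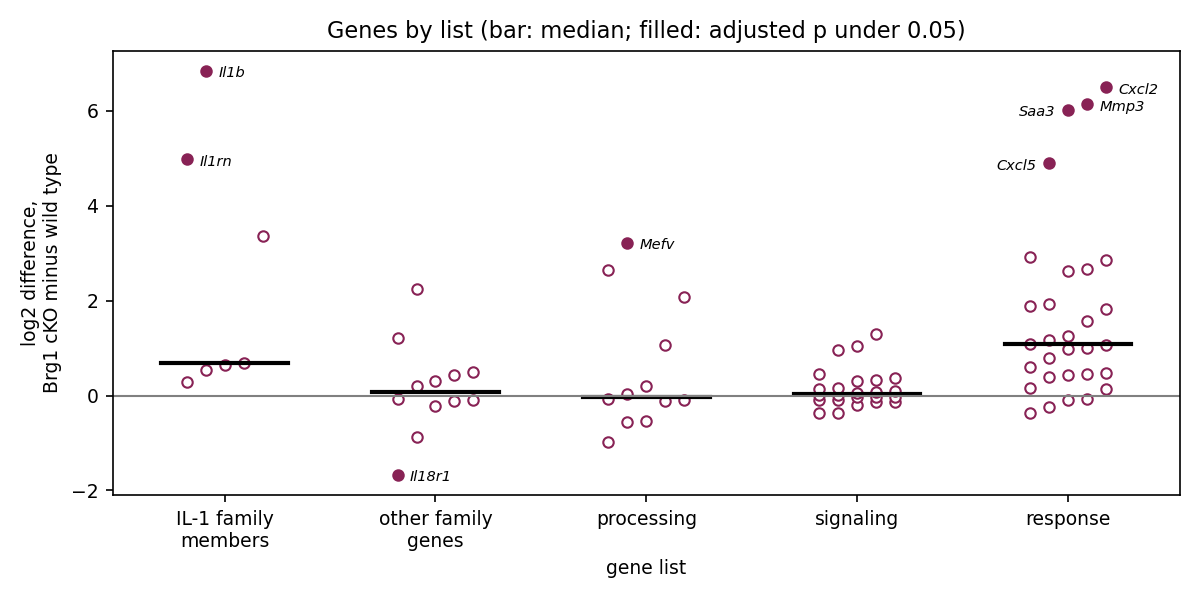
Log2 difference between Brg1 cKO and wild type (vertical axis) of each measured gene in the family and in 4 gene lists of the pathway (horizontal axis, points spread sideways for legibility). Filled points passed the threshold and are named, and bars are list medians. Medians were 0.69 for the 7 genes, 0.07, -0.03 and 0.04 for other family, processing and signaling genes, and 1.08 for response genes.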

How the data were processed

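Eyeball RNA was amplified and biotin-labelled by the NuGEN Ovation method, per the labels. The deposited values are RMA (robust multichip average) intensities on a linear scale, which the authors background-adjusted, normalized between arrays and summarised per probe set. The RMA software is not named in the sources read. RMA draws dim signals together, so folds from a low level are uncertain. Intensities were converted to log2 here.

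The table held 22690 rows, of which 64 array controls were left out. The platform annotation, which can be old, gave 1 gene to 20380 probe sets, several to 691 and none to 1555, and a gene was represented by its probe set with the highest mean. Genotypes were compared with limma 3.58.1 (R 4.3.3) in a model of genotype without covariates, a two-sided test and Benjamini-Hochberg adjustment over all probe sets. The procedure was tried on simulated data with the same SD in both genotypes. The Brg1 cKO eyeballs had the larger median SD, so that trial does not cover unequal spread. An exact permutation test of 3 arrays against 3 cannot go below p = 0.1 and was not used for calls. A selection modelled on the study's, correlation with a genotype template plus a fold over 1.5, was an alternative. Others were an intensity trend in the prior variance, a pseudocount of 16, a filter on low values, other scalings, the mean of all probe sets of a gene, the replicate number as a block, and each array left out.

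The text names the family's genes, Smarca4, the list genes past the threshold and otherwise up to 3 per list with the smallest p, and the 3 genes most like each member that passed. Other named genes were chosen after their values were seen. Members and gene lists were chosen with earlier results of these data known. By the methods each array is 1 eyeball, and nothing read here gives the animal of each. The p-values therefore weigh differences against the spread between eyeballs, not animals. If eyeballs shared an animal, the p-values could be too small. In all, 0 pairs of arrays held identical values. Sequences came from RefSeq tables of GRCm38.p6, in which 8 of 8 genes were found.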

Additional observations from a re-analysis of the deposited data

How the results depend on the processing

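Il1b passed in every alternative tried, and its limma adjusted p ran from 0.00102 with an intensity trend to 0.045 with a pseudocount of 16. The count of members that rose, 2, was 1 with the pseudocount, 4 with template matching, 4 at an unadjusted p under 0.05 with a fold over 1.5, and 1 to 3 with 1 array left out. The count of genes that rose in the 4 pathway lists, 5, was 3 with the pseudocount, 17 with template matching, 26 at an unadjusted p, and 3 to 10 with 1 array left out. The count that fell, 1, was 0 with the pseudocount, 0 with the filter on low values, 2 at an unadjusted p, and 0 to 1 with 1 array left out. Over all probe sets the count of 115 became 32 with the pseudocount, 820 with template matching, 1467 at an unadjusted p and 24 to 216 with 1 array left out. By template matching the study reports a larger number of genes for these eyeballs, and its count was not reproduced here. The medians of the processing and signaling lists, -0.03 and 0.04, changed sign under some alternatives, reaching 0.20 with the filter and -0.07 without Brg1 cKO replicate 1. Smarca4 turned to -0.26 as the mean of its probe sets. Il1a, too dim, gave no value under the filter. The cause of these changes was not tested, and the fits with an array left out also had a smaller sample.

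Samples of the same number share only that number. The deviations of same-numbered arrays correlated at 0.06, 0.08 and 0.13, and no array correlated best with the array of its own number. With the replicate block 1 member rose, Il1rn having an adjusted p of 0.0681, the pathway list counts were 4 higher and 0 lower, and 45 probe sets passed.

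Signal limits Il1a in both genotypes and Il1b, Il1rn and Il1r2 in wild type, whose mean levels were under 4.84, and their folds are uncertain.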
